A study of Oryza sativa Indica Group with 6 samples.

Results

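The 5 genes described here encode, by the descriptions in the array files, enzymes of ethylene synthesis: 4 are described as 1-aminocyclopropane-1-carboxylate (ACC) oxidases and 1 as an ACC synthase. They were chosen by gene name among the probes whose description names either enzyme, and they are 5 of 11 such probes and of 21495 gene probes on the array. Each was read by 1 oligonucleotide probe and is named by its cDNA accession. AK064250 is described by a wheat ACC synthase (ACS2) and is called ACC synthase-like. AK058296 and AK059964 are described as rice ACC oxidase, AK065039 as the rice ACC oxidase ACO1, and AK102472 by a putative ACC oxidase of Arabidopsis, so it is called ACC oxidase-like.

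Plants make the gaseous hormone ethylene from methionine. Methionine is activated to S-adenosylmethionine, ACC synthase turns that into ACC, and ACC oxidase turns ACC into ethylene in a step that uses oxygen. Under water the gas leaves the tissue slowly and builds up, and in rice it sets off the growth and survival responses to flooding, which differ between tolerant and susceptible cultivars.

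Leaves of 2 rice genotypes were compared, FR13A, labelled tolerant of submergence, and IR24, labelled susceptible. Plants were grown in growth chambers. The constitutive plants were untreated and harvested 14 days after sowing, and the treated plants were submerged in clear plastic bags at that age and harvested after 15 min, or after 24 h at 15 days. No untreated plants of 15 days were among these samples, so 1 day of age and 24 h of submergence cannot be told apart. Each of the 6 arrays carried FR13A RNA in one dye and IR24 RNA in the other, with 2 arrays per time. Replicate 1 of each time had FR13A in Cy5, the red dye, and replicate 2 had it in Cy3, the green dye. Nothing in the labels says that replicates came from separate plants, so the p-values measure the spread between these arrays, which may be technical, and 2 arrays per time limit the precision.

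All 5 probes were well above background in all 12 channels, and none was saturated or marked as uneven. Over the arrays, 85.4% to 92.2% of gene probes were well above background in Cy3 and 81.8% to 95.3% in Cy5. Leaf markers were probes described as Rubisco small subunit, chlorophyll a/b-binding or photosystem I, a text match that also admits photosystem II. Of 34 such probes, 32 were well above background in all channels, and the median processed intensity of the 34 was 7658 to 19490. The corresponding medians were 116.9 to 449.2 for 9 root probes, 141.9 to 322.5 for 15 seed probes and 245.3 to 574.4 for 12 pollen probes. Of these, 4, 9 and 6 were well above background in all 12 channels. In whole leaves, fewer cells of a type and less RNA per cell cannot be told apart.

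The first question was how the genotypes differed, which each array answers directly as a log2 ratio of FR13A over IR24. One ACC oxidase, AK058296, was far higher in FR13A at every time, and ACO1 (AK065039) was lower in FR13A at every time. The ACC oxidase-like AK102472 was higher in FR13A at 24 h and in the mean over the 3 times. The ACC oxidase AK059964 and the ACC synthase-like AK064250 did not pass the test in any of these 4 comparisons. A difference was called at a limma p-value under 0.05 after Benjamini-Hochberg adjustment over all probes tested. Each ratio compares probe signal between the genotypes. Whether the genotypes differ in sequence under a probe was not tested, because probe sequences are not given in the sources used here. A ratio can therefore not be read as transcript level alone.

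**Figure D1:**
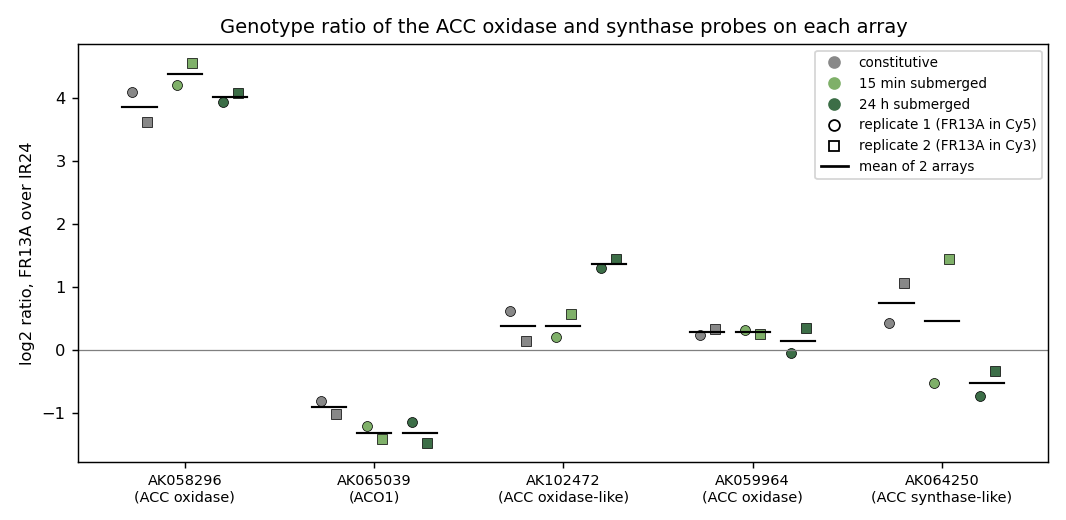
Log2 ratio of FR13A over IR24 (vertical axis) of the 5 probes on each of the 6 arrays; colour gives the time, circles replicate 1 (FR13A in Cy5), squares replicate 2 (FR13A in Cy3), and bars the mean of 2 arrays. AK058296 lies between 3.61 and 4.55 and AK065039 between -1.47 and -0.80, whereas the replicates of AK064250 at 15 min lie on opposite sides of 0, at -0.52 and 1.44.

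The ACC synthase-like gene AK064250, of the enzyme family that makes ACC, had ratios of 0.43 and 1.05 on the constitutive arrays (replicates 1 and 2), -0.52 and 1.44 on the 15 min arrays and -0.72 and -0.33 on the 24 h arrays. The constitutive ratios were thus above 0 and the 24 h ratios below it, while at 15 min the replicates had opposite signs. The mean over the 3 times was 0.23 (SE 0.26, n = 6 arrays, limma adjusted p = 0.611), and the means at the single times were 0.74, 0.46 and -0.53 (SE 0.45 each, n = 2 arrays). Their adjusted p-values were 0.458, 0.721 and 0.597. The SE rests on 1 spread shared by all 6 arrays. The SD of the 2 arrays was 0.44 in constitutive plants, 1.38 at 15 min and 0.28 at 24 h. With the shared spread, its 95% interval at 24 h ran from -1.64 to 0.59, so this fit could not resolve a difference of about that size. The mean over the times was 0.55 without the 15 min array of replicate 1 and -0.10 without that of replicate 2. Its sign thus depended on which 15 min array was left out.

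The ACC oxidase AK058296, of the enzyme family that releases ethylene from ACC, had ratios of 4.09 and 3.61 on the constitutive arrays, 4.19 and 4.55 on the 15 min arrays and 3.93 and 4.07 on the 24 h arrays. The scanner software's processed intensity, which has its own background and dye correction and is not what these ratios were computed from, was in FR13A 19018 and 15472 in constitutive plants, 26136 and 35324 at 15 min and 17338 and 13728 at 24 h. In IR24 it was 668 and 1054, 1016 and 1237, and 801 and 676. Every FR13A channel was thus above every IR24 channel, by a wide margin, and no IR24 channel was at background. The mean difference was 4.08 (SE 0.09, 95% interval 3.86 to 4.29, n = 6 arrays), or 16.9-fold, with a limma adjusted p of 2.45e-05. The deposited ratios, which follow the processed intensities, gave a mean log2 difference of 4.51 (limma adjusted p = 2.55e-06). On the log2 scale it was 3.85 in constitutive plants (adjusted p = 0.000609) and 4.37 at 15 min (adjusted p = 0.000637), by limma with an SE of 0.15. At 24 h the 95% interval was 3.63 to 4.37 (limma adjusted p = 0.000319). By size it ranked 7 among the 20288 probes tested for the mean, 11 in constitutive plants, 4 at 15 min and 16 at 24 h.

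ACO1 (AK065039), one of the named rice ACC oxidases, had ratios of -0.80 and -1.01 on the constitutive arrays, -1.21 and -1.41 at 15 min and -1.15 and -1.47 at 24 h. All 6 arrays put it lower in FR13A. Its processed intensity was 1775 to 3757 in FR13A and 4213 to 9156 in IR24, ranges that do not overlap. IR24 exceeded FR13A by 2.26-fold in the mean (log2 -1.18, SE 0.07, limma adjusted p = 0.000349). At the single times IR24 was 1.88-fold, 2.48-fold and 2.48-fold above FR13A (log2 -0.91, -1.31 and -1.31, SE 0.12 each). The limma adjusted p-values were 0.0141, 0.0052 and 0.00325. The constitutive call was lost without constitutive replicate 1 (-1.01, limma adjusted p = 0.121) or replicate 2 (-0.80, adjusted p = 0.119), and the 15 min call without 15 min replicate 2 (-1.21, adjusted p = 0.0525). With each array centred on its median in place of loess, the adjusted p-values at the 3 times were 0.549, 0.107 and 0.137.

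The ACC oxidase-like AK102472, described by a putative Arabidopsis enzyme, had ratios of 0.62 and 0.14 on the constitutive arrays, 0.21 and 0.57 at 15 min and 1.30 and 1.44 at 24 h. All 6 were above 0, and both 24 h ratios were above all the others. The difference in the mean was 0.71 (SE 0.09, limma adjusted p = 0.00427), or 1.64-fold. At 24 h it was 1.37 (SE 0.15, limma adjusted p = 0.006), or 2.58-fold, while the values of 0.38 in constitutive plants and 0.39 at 15 min had limma adjusted p-values of 0.246 and 0.251. The 24 h call was lost without 24 h replicate 1 (1.44, adjusted p = 0.0501) or replicate 2 (1.30, adjusted p = 0.0851). Median centring in place of loess also ended it (1.30, limma adjusted p = 0.129), as it did the call for the mean (0.63, adjusted p = 0.104).

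The ACC oxidase AK059964 had ratios of 0.24 and 0.33 on the constitutive arrays, 0.32 and 0.25 at 15 min and -0.04 and 0.34 at 24 h. Of the 6 arrays, 5 had it slightly above 0. The mean of 0.24 (SE 0.07, 95% interval 0.08 to 0.40) did not pass the limma test (adjusted p = 0.057), and without 24 h replicate 1 it was 0.30 and passed (adjusted p = 0.0398). The single times gave 0.28, 0.28 and 0.15 (limma adjusted p = 0.251, 0.265 and 0.54).

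In the mean over the times, 2 of the 5 genes were called higher in FR13A and 1 lower, beside 10.1% of all probes called higher and 10.1% lower. In constitutive plants 1 gene was called higher (3.18% of all probes) and 1 lower (2.96%). At 15 min 1 was called higher (2.42%) and 1 lower (2.91%), and at 24 h 2 were called higher (3.50%) and 1 lower (4.12%). The median over the 5 genes was 0.24 for the mean over the times, beside -0.0037 over all probes, and it hides opposite signs among the oxidases.

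The second question was how the genes changed under water in each genotype, read from the level in each channel after normalisation between arrays. After 24 h the ACC oxidase-like AK102472 had risen and the ACC oxidase AK059964 had fallen in both genotypes. The ACC synthase-like AK064250 had risen in IR24. None of the 5 genes passed the test for a change at 15 min in either genotype. AK058296, the oxidase with the large genotype difference, fell from 15 min to 24 h in FR13A, and ACO1 passed no test of change over time.

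**Figure D2:**
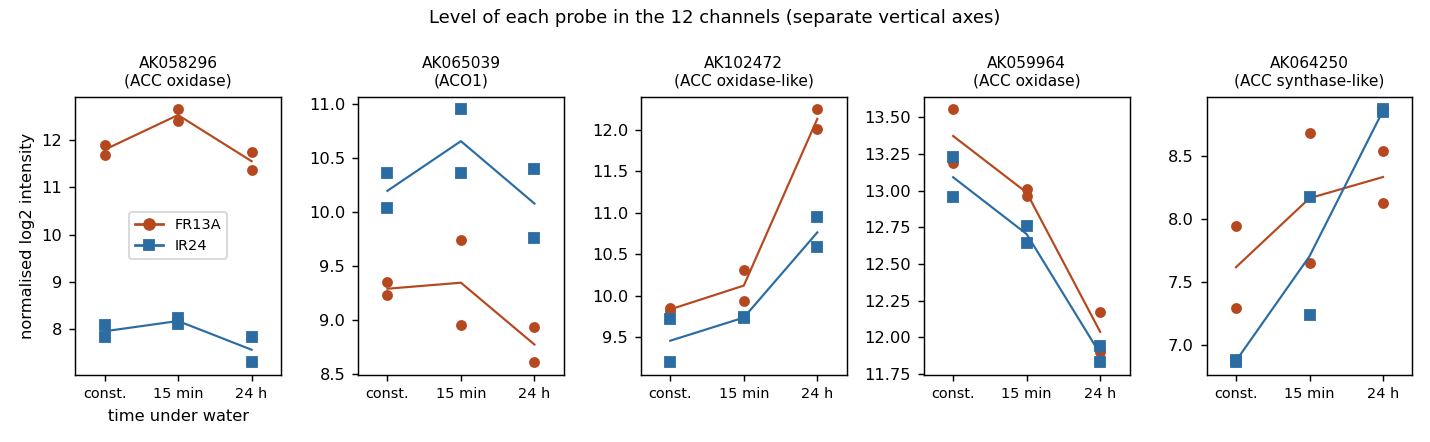
Normalised log2 intensity (vertical axes, a separate scale per gene) of the 5 probes in constitutive, 15 min and 24 h plants; each point is 1 channel, red circles FR13A and blue squares IR24, with lines through the means of 2 channels. AK102472 ends at 12.13 in FR13A and 10.76 in IR24 and AK059964 falls in both genotypes, to 12.04 and 11.89.

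The ACC synthase-like AK064250 had normalised log2 intensities in IR24 of 6.87 and 6.89 in constitutive plants, 8.17 and 7.24 at 15 min and 8.85 and 8.87 at 24 h. In FR13A these were 7.30 and 7.94, 7.65 and 8.68, and 8.13 and 8.54. In IR24 the constitutive replicates lay close together and far below the 24 h pair, which also lay close together, whereas in FR13A the 15 min replicates spanned the 24 h pair. The rise in IR24 from constitutive to 24 h was 1.98 (SE 0.50, limma adjusted p = 0.0397), or 3.95-fold. In FR13A the change was 0.71 (SE 0.50, 95% interval -0.42 to 1.85, limma adjusted p = 0.473). The call in IR24 was lost without any one of the 4 constitutive and 24 h arrays (changes of 1.95 to 1.99, limma adjusted p = 0.157 to 0.227), with scan day as a block (2.21, adjusted p = 0.183) and with no normalisation between arrays (2.39, adjusted p = 0.109). Within scan day 3, the scan day that held constitutive replicate 1 and the 24 h array of replicate 2, the difference in IR24 was 2.00, between opposite dyes.

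AK102472 had normalised log2 intensities in FR13A of 9.82 and 9.85 in constitutive plants, 9.93 and 10.31 at 15 min and 12.25 and 12.02 at 24 h. In IR24 they were 9.20 and 9.71, 9.73 and 9.74, and 10.94 and 10.58. In both genotypes the 24 h pair lay above all earlier channels. From constitutive to 24 h it rose by 2.30 (SE 0.21, limma adjusted p = 0.000271) in FR13A, or 4.92-fold, and by 1.31 (SE 0.21, limma adjusted p = 0.00498) in IR24, or 2.47-fold. From 15 min to 24 h it rose by 2.01 (limma adjusted p = 0.000523) and 1.03 (adjusted p = 0.0151). Within the scan days that held both these times and the same dyes, the rise was 2.31 and 1.71 in FR13A and 1.22 and 0.84 in IR24. The IR24 rise from constitutive lost its call without constitutive replicate 1 (1.04, limma adjusted p = 0.0565) or 24 h replicate 1 (1.13, adjusted p = 0.0902). The IR24 rise from 15 min lost it without 15 min replicate 2 (1.03, limma adjusted p = 0.0553), 24 h replicate 1 (0.85, adjusted p = 0.175) or 24 h replicate 2 (1.21, adjusted p = 0.0631).

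The ACC oxidase AK059964 went the other way. Its processed intensity in FR13A was 48216 and 60524 in constitutive plants, 37885 and 44198 at 15 min and 19403 and 23409 at 24 h. In IR24 it was 41313 and 47609, 30573 and 36651, and 19964 and 18372. The 24 h values were below all earlier ones in both genotypes. After normalisation the fall from constitutive to 24 h was -1.34 in FR13A (SE 0.17, limma adjusted p = 0.00119), 2.53-fold, and -1.21 in IR24 (SE 0.17, limma adjusted p = 0.00204), 2.31-fold. With no normalisation between arrays the values were -0.96 and -0.83 (limma adjusted p = 0.0999 and 0.154) and the calls were lost. At 15 min the values were -0.39 in both genotypes and did not pass (limma adjusted p = 0.454 in FR13A and 0.468 in IR24). The fall from 15 min to 24 h was -0.95 in FR13A (limma adjusted p = 0.00655) and -0.82 in IR24 (adjusted p = 0.0138). Within the 2 scan days that held both times it was -1.06 and -0.84 in FR13A and -0.70 and -0.93 in IR24. That call was lost in IR24 without 15 min replicate 2 (-0.77, limma adjusted p = 0.0987), 24 h replicate 1 (-0.87, adjusted p = 0.0631) or 24 h replicate 2 (-0.77, adjusted p = 0.0936). In FR13A it was lost without 15 min replicate 2 (-0.93, limma adjusted p = 0.0506) or 24 h replicate 1 (-0.82, adjusted p = 0.0678). With no normalisation between arrays the change from 15 min was -0.10 in FR13A (limma adjusted p = 0.788) and 0.033 in IR24 (adjusted p = 0.927).

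AK058296 varied less over time than between genotypes. In FR13A the change from constitutive to 15 min was 0.74 (SE 0.21, limma adjusted p = 0.193), and from 15 min to 24 h it fell by 0.98 (SE 0.21, adjusted p = 0.0189). In IR24 the values were 0.22 and -0.61 and neither passed (limma adjusted p = 0.859 and 0.118). The fall in FR13A was lost without 15 min replicate 2 (-0.85, limma adjusted p = 0.116) or 24 h replicate 2 (-0.79, adjusted p = 0.144), with no normalisation between arrays (-0.13, adjusted p = 0.709) and from the processed signals (-1.05, adjusted p = 0.0526). From constitutive to 24 h neither genotype passed, at -0.24 in FR13A and -0.39 in IR24.

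ACO1 (AK065039) had changes from constitutive to 24 h of -0.52 in FR13A and -0.12 in IR24 (SE 0.27 each, limma adjusted p = 0.314 and 0.888). From 15 min to 24 h they were -0.57 and -0.58, with limma adjusted p-values of 0.221 and 0.249. The replicates at 15 min lay far apart in FR13A, at 9.74 and 8.95, which limits what these arrays can show for this gene.

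From constitutive to 24 h in IR24, 2 of the 5 genes were called higher (4.44% of all probes) and 1 lower (4.46%). In FR13A 1 was called higher (4.16%) and 1 lower (5.77%). From 15 min to 24 h the counts in IR24 were 1 higher (3.51%) and 1 lower (6.43%), and in FR13A 1 higher (3.99%) and 2 lower (7.03%). From constitutive to 15 min limma called 0 of the 5 in IR24 (2.09% of all probes called in either direction) and 0 in FR13A (1.59%), and 1 and 2 of them had an unadjusted p under 0.05. The median change of the 5 genes to 24 h was -0.12 in IR24 and -0.24 in FR13A, with 0.0013 and -0.0027 over all probes.

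The third question was whether the genotype ratio itself changed under water. None of the 5 genes passed that limma test in any of the 3 pairs of times (0, 1 and 1 had an unadjusted p under 0.05), and 0%, 0.108% and 0.0838% of all probes did (constitutive to 15 min, constitutive to 24 h and 15 min to 24 h). For constitutive to 15 min the smallest limma adjusted p over all probes was 0.598, although 427 probes had an unadjusted p under 0.05. The largest change among the ACC oxidases was that of AK102472, whose ratio rose by 0.99 from constitutive to 24 h (SE 0.21, 95% interval 0.46 to 1.52, unadjusted p = 0.00415, limma adjusted p = 0.303) and by 0.98 from 15 min (adjusted p = 0.321). The difference between its rise in FR13A and its smaller rise in IR24 therefore did not pass after adjustment. For AK064250 the ratio changed by -1.27 from constitutive to 24 h (95% interval -2.84 to 0.31, limma adjusted p = 0.806), so its call in IR24 and not in FR13A is not a shown difference between them. For AK058296 the ratio changed by 0.52 to 15 min and 0.15 to 24 h, for ACO1 by -0.40 to both times, and for AK059964 by 0.0019 and -0.13.

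Ordered by mean normalised log2 intensity, AK058296 ran from IR24 at 24 h (7.55), constitutive (7.95) and 15 min (8.16) to FR13A at 24 h (11.56), constitutive (11.80) and 15 min (12.54). The order of the times was thus the same in both genotypes, with overlap between 24 h and constitutive in each. Both genotypes were read on the same arrays, so their orders are not independent. ACO1 ran from FR13A at 24 h (8.77), constitutive (9.29) and 15 min (9.34) to IR24 at 24 h (10.08), constitutive (10.20) and 15 min (10.66), and in each genotype the constitutive channels overlapped one neighbour. AK102472 ran from IR24 constitutive (9.46) and 15 min (9.73) through FR13A constitutive (9.83) and 15 min (10.12) to IR24 at 24 h (10.76) and FR13A at 24 h (12.13), with no overlap between neighbours. For AK059964 time ordered the levels more than genotype. Its lowest were IR24 (11.89) and FR13A (12.04) at 24 h, which overlapped, then IR24 (12.70) and FR13A (12.99) at 15 min and IR24 (13.09) and FR13A (13.37) in constitutive plants, and the top 3 overlapped their neighbours. AK064250 ran from IR24 constitutive (6.88) through FR13A constitutive (7.62), IR24 at 15 min (7.71), FR13A at 15 min (8.17) and FR13A at 24 h (8.33) to IR24 at 24 h (8.86), and the 4 middle conditions overlapped their neighbours among themselves.

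Of the other probes described as ACC oxidase or synthase, 4 are given here. The rice ACC synthase probe ACC1 (AK071011) passed at 15 min in both genotypes, where none of the 5 genes passed. Its processed intensity over both genotypes was 88.4 to 97.2 in constitutive plants, 209 to 274 at 15 min and 215 to 269 at 24 h. The constitutive channels were thus below all treated channels. This probe was well above background in all 12 channels, but its constitutive signal was near the floor. Its normalised log2 intensities there were 6.19 to 6.24. Those of the sorghum ACO1-like AK105491, not above background in every channel, were 6.04 to 6.34. The size of the change depended on the processing, as given below. The change to 15 min was 0.57 in IR24 (SE 0.11, limma adjusted p = 0.0295) and 0.62 in FR13A (SE 0.11, adjusted p = 0.0241), and to 24 h it was 0.56 in IR24 (adjusted p = 0.0114) and 0.38 in FR13A (adjusted p = 0.0608). From the processed signals, which give the intensities above, the changes were 1.45 in IR24 and 1.67 in FR13A to 15 min and 1.45 in IR24 to 24 h, and with no normalisation between arrays they were 0.28, 0.33 and 0.80 in that order. All 3 calls were lost with no normalisation between arrays (limma adjusted p = 0.491, 0.413 and 0.0533) and with scan day as a block (adjusted p = 0.37, 0.348 and 0.125). The calls at 15 min were also lost without any one of the 6 arrays (0.52 to 0.62 in IR24, limma adjusted p = 0.0967 to 0.215, and 0.58 to 0.66 in FR13A, adjusted p = 0.105 to 0.255), and that at 24 h without any one of the 4 constitutive and 24 h arrays (adjusted p = 0.0749 to 0.133). The genotype ratio of this probe was between -0.19 and 0.08 on all 6 arrays.

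The wheat ACS1-like synthase probe AK065212 was lower in FR13A by -0.44 in the mean (SE 0.08, limma adjusted p = 0.0133), and not without 24 h replicate 2 (-0.41, adjusted p = 0.0572) or with median centring in place of loess (-0.54, adjusted p = 0.189). The sorghum ACO1-like AK061064 and AK105491 did not pass in any comparison, and AK105491 was well above background in only 2 of 6 FR13A and 5 of 6 IR24 channels.

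**Figure D3:**
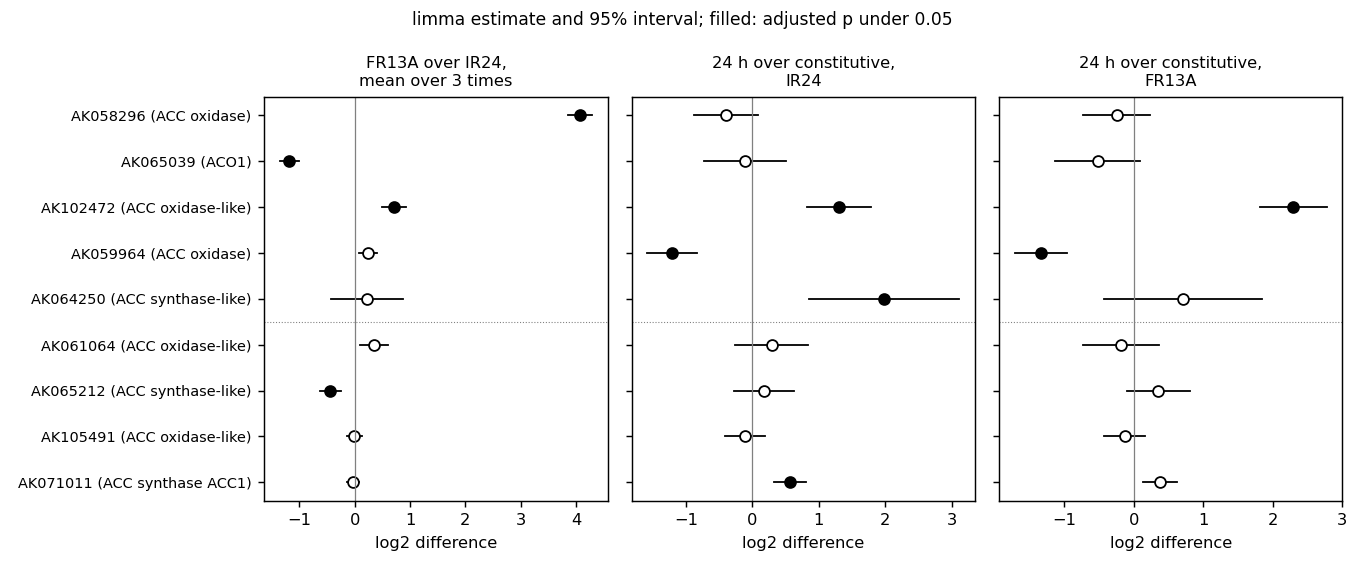
Log2 difference with its 95% interval (horizontal axes) for 5 ACC oxidase and synthase genes above the dotted line and 4 other probes described as such enzymes below it; filled points had a limma adjusted p under 0.05. AK058296 stands at 4.08 in the genotype panel and near 0 in both 24 h panels, whereas AK102472 and AK059964 are called in both 24 h panels, in opposite directions.

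Upstream of ACC, the array holds 5 probes for methionine and S-adenosylmethionine supply and 3 for the Yang cycle, which recovers methionine from the by-product of ACC synthesis. None of the 8 passed a genotype comparison in limma, and 1 of them had an unadjusted p under 0.05 at each single time. Over all probes, 10.1% were called higher and 10.1% lower in the mean, and 2.42% to 4.12% in each direction at a single time. The 0 calls among 8 probes at a single time are near that share. The 4 supply probes and 3 Yang cycle probes measured in every channel gave 1 call over time, a rise of the S-adenosylmethionine synthetase AK103157 by 0.56 from 15 min to 24 h in FR13A (limma adjusted p = 0.0389), lost without any 1 array other than 15 min replicate 1 (0.44 to 0.63, adjusted p = 0.0686 to 0.238), with scan day as a block (adjusted p = 0.081), with quantile normalisation (0.46, adjusted p = 0.233) and from the processed signals (adjusted p = 0.0886). Over all probes, 3.99% were called higher from 15 min to 24 h in FR13A. The median change from constitutive to 24 h of the supply list was -0.19 in IR24 and -0.09 in FR13A.

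Downstream, 15 probes are described as ethylene receptors, EIN2 or EIN3-like factors. Receptors bind ethylene and, without it, hold the pathway off, EIN2 passes the signal on, and EIN3-like (EIL) proteins are the transcription factors at its end. From constitutive to 24 h, 4 of 15 rose and 1 fell in IR24 (beside 4.44% and 4.46% of all probes), and 3 rose and 1 fell in FR13A (4.16% and 5.77%), with list medians of 0.05 and -0.04. A single fall among 15 is near the share over all probes. One OsEIL1 probe (AK068429) rose by 1.67 in IR24 (limma adjusted p = 0.00643) and 1.22 in FR13A (adjusted p = 0.0267), and a second (AK060826) by 1.07 and 1.08 (adjusted p = 0.0245 and 0.0225). Another probe with the OsEIL1 description, AK101076, was called in neither genotype. The putative receptor ETR2 (AK111748) rose by 0.87 and 0.70 (limma adjusted p = 0.00735 and 0.0197), and the putative receptor ERS2 (AK111696) was lower by -0.74 and -0.80 (adjusted p = 0.0285 and 0.019). Each of these 8 calls was lost without at least 1 of the 4 constitutive and 24 h arrays. The highest limma adjusted p-values then, in IR24 and FR13A, were 0.09 and 0.162 for AK068429, 0.13 and 0.178 for AK060826, 0.0986 and 0.146 for ETR2 and 0.189 and 0.163 for ERS2. With scan day as a block, 5 of the 8 were lost, those of AK068429 in FR13A (limma adjusted p = 0.0765), AK060826 in both genotypes (0.215 and 0.217) and ETR2 in both (0.124 and 0.243). With no normalisation between arrays, AK060826 lost both calls (limma adjusted p = 0.0726 and 0.0708) and so did ERS2, at -0.43 and -0.49 (adjusted p = 0.331 and 0.262), and the processed signals ended the call of ETR2 in FR13A (adjusted p = 0.0541). From 15 min to 24 h, 3 of 15 were called higher and 1 lower in IR24 (beside 3.51% and 6.43% of all probes). In FR13A 0 were called higher and 1 lower (3.99% and 7.03%). A single fall is again near the share over all probes. In each genotype it was that of OsEIL2 (AK060806), at -2.45 to -0.83 in IR24 and -2.13 to -1.09 in FR13A over 14 alternatives. Both calls were lost with no normalisation between arrays and without either 24 h array. The IR24 call was also lost with scan day as a block (-1.68, limma adjusted p = 0.0516) and without either constitutive array (-1.68 and -1.67).

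Between genotypes, the mean over the times gave 2 calls above 0 and 1 below it among the 15 signalling probes, beside 10.1% of all probes called higher and 10.1% lower, so these counts are near the share over all probes. The EIN2-like AK105770 was lower by -0.61 (limma adjusted p = 0.00303), a receptor-like protein 2 probe (AK111520) higher by 0.46 (adjusted p = 0.0106) and OsEIL1 AK068429 higher by 0.46 (adjusted p = 0.0301). The other probes described as EIN2, receptor-like protein 2 or OsEIL1 were not called in the mean. AK111520 lost its call without constitutive replicate 1 (0.43, limma adjusted p = 0.0506) and with median centring (adjusted p = 0.125), and AK068429 without constitutive replicate 1, 15 min replicate 2 or either 24 h array (0.37 to 0.49, adjusted p = 0.0693 to 0.0982). AK068429 lost it also with median centring (0.38, limma adjusted p = 0.431), the replicate block (0.46, adjusted p = 0.0554) and scan day as a block (0.38, adjusted p = 0.0963). At 24 h limma called 0 of the 15 between the genotypes, and 1 had an unadjusted p under 0.05. Over all probes, 3.50% were called higher and 4.12% lower there, so the count of 0 is near that share.

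**Figure D4:**
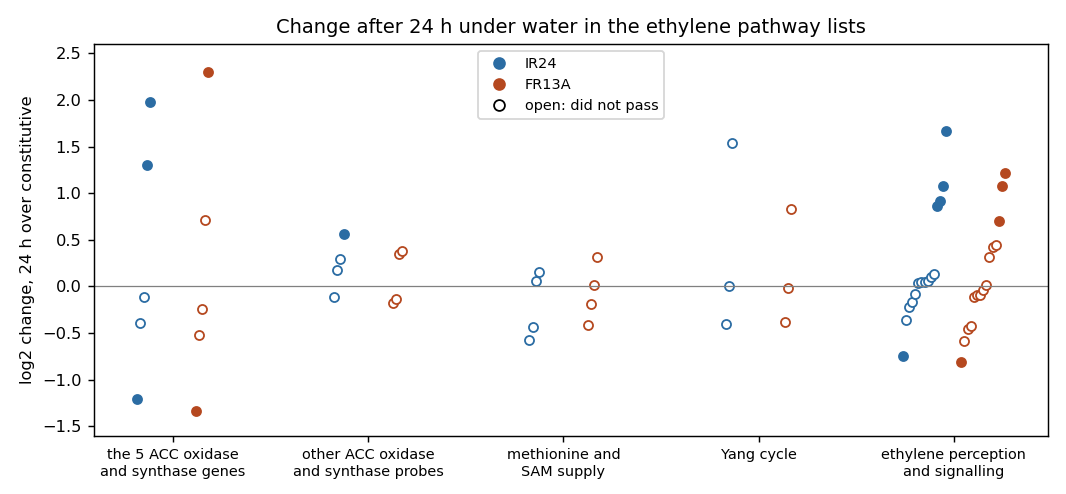
Log2 change from constitutive to 24 h (vertical axis) for the reported probes of the 5 gene groups, IR24 in blue and FR13A in red; filled points had a limma adjusted p under 0.05, and points are spread sideways by value. The 5 ACC oxidase and synthase genes span -1.34 to 2.30, and the supply and Yang cycle groups hold no filled point.

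The 3 described probes whose normalised level was most like that of each gene were found by Pearson correlation over the 12 channels among 11521 probes. These are descriptions, because the channels share arrays, genotypes and times. For AK058296, whose channels fall into separate genotype groups, they were AK061798 (0.98), AK103578 (0.98) and AK066974 (0.98), known by matches to clones of other species. For ACO1 they were the MADS box-like AK069317 (0.94), AK060965 (0.93), described by a putative rhamnosyltransferase, and AK111721 (0.93), described by a protein kinase. For AK102472 they were AK060527 (0.98), AK107152 (0.97) and the cytosolic pyruvate orthophosphate dikinase AK065739 (0.98), which makes phosphoenolpyruvate from pyruvate. For AK059964 they were AK104054 (0.98), the flavonoid glycosyltransferase-like AK071127 (0.98) and the ribonuclease AK058502 (0.98). For AK064250 the likeness was lower, with AK070134 (0.93), the Rieske iron-sulfur protein AK059519 (0.93) and the alanine:glyoxylate aminotransferase-like AK060423 (0.91). Over 0.9 lay 102 probes for AK058296, 16 for ACO1, 59 for AK102472, 135 for AK059964 and 5 for AK064250.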

How the data were processed

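Per the file headers, an array's file gives, for each dye, the mean intensity of every spot and of its surroundings, a processed intensity, and the log10 ratio of the dyes. Agilent Feature Extraction 8.1 made them, per the submitters' processing notes. The deposited series table holds log10 ratios, which correlated at 1 or -1 with those of the array files, with column medians of 0, and so run as FR13A over IR24. A genome build and probe sequences are not given in the sources used here.

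Of 22575 spots per array, 162 negative and 918 positive controls were left out. Background was corrected with normexp (offset 50) and arrays were normalised by loess in limma 3.58.1 (R 4.3.3). Marked spots (non-uniform or outlier) were set missing. A probe entered the tests if either channel was well above background on 2 or more of the 6 arrays (20315 probes). Log2 ratios were fitted with 1 mean per time (3 residual degrees of freedom). Changes within a genotype used the separate-channel fit after Aquantile normalisation (18907 probes without a missing channel, intraspot correlation 0.499). Tests were two-sided, adjusted by Benjamini-Hochberg over all probes, and the scripts were tested on simulated data. The arrays lay on 6 slides and 3 scan days. Constitutive replicate 1 and replicate 2 of both treated times shared a day, replicate 1 of both treated times another, and constitutive replicate 2 was alone.

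The 5 genes and the lists were chosen with earlier results of these data known. The text names all 5 genes, 4 other ACC probes, up to 3 probes per list and comparison with the smallest p, and the 3 probes most alike in level. Any other list probe named was chosen after its values were seen. Alternatives were the background correction, the normalisation, the filter on dim probes, keeping marked spots, the deposited ratios, replicate and scan day blocks, and leaving out each array. A replicate block with crossed numbers was added after seeing the data. The remaining ACC probes are not reported here.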

Additional observations from a re-analysis of the deposited data

How the results depend on the processing

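Under 14 alternatives, AK058296 kept its call in all 4 genotype comparisons (3.61 to 4.77), ACO1 in the mean over the times (-1.28 to -1.12) and AK102472 its rises to 24 h in FR13A (1.84 to 2.84). With median centring in place of loess, 1 of the 5 genes was called in constitutive plants, 1 at 15 min and 1 at 24 h, against 2, 2 and 3, and 239, 182 and 306 of all probes against 1249, 1084 and 1546. AK059964 then reversed at 15 min (-0.024), and so did the ratio change of AK102472 (-0.30) and AK059964 (-0.35) to 15 min and of AK059964 from 15 min to 24 h (0.10). No normalisation between arrays moved the median of all probes by -0.32 and -0.33 (constitutive to 15 min, IR24 and FR13A), 0.30 and 0.30 (to 24 h) and 0.65 and 0.66 (15 min to 24 h). It left 1 gene called in each of IR24 constitutive to 24 h, IR24 15 min to 24 h, FR13A constitutive to 24 h and FR13A 15 min to 24 h, against 3, 2, 2 and 3. AK059964 then had -0.83 and -0.96 to 24 h, or -1.13 and -1.26 relative to that median. Its fall in IR24 from 15 min became 0.033, or -0.62 relative to the median. Uncalled values that reversed there were AK058296 in IR24 (-0.21, 0.032 and 0.24 for constitutive to 15 min, to 24 h and 15 min to 24 h) and FR13A (0.18 to 24 h), ACO1 in IR24 (0.32 to 24 h and 0.29 from 15 min) and FR13A (-0.38 to 15 min, 0.29 from 15 min) and AK102472 to 15 min (-0.14 and -0.13). Scan day as a block reversed the ratio change to 15 min of AK102472 (-0.11) and AK064250 (0.62), and keeping marked spots the change of ACO1 within FR13A from constitutive to 15 min (-7.73e-05).

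Leaving out 1 array gave 1 to 2 of the 5 genes called in constitutive plants and at 15 min, and for changes 1 to 3 in IR24 constitutive to 24 h, 0 to 3 in IR24 15 min to 24 h and 1 to 3 in FR13A 15 min to 24 h. Without constitutive replicate 1 or 2, 178 and 377 of all probes were called in constitutive plants, without 15 min replicate 2 307 at 15 min, and without 24 h replicate 2 447 at 24 h. Uncalled values changed sign for AK064250 (-0.10 to 0.55 in the mean, -0.52 to 1.44 at 15 min, ratio change to 15 min -1.26 to 0.70, FR13A from 15 min -0.34 to 0.68), AK059964 (-0.040 to 0.34 at 24 h, ratio changes -0.043 to 0.047, -0.32 to 0.060 and -0.32 to 0.058), AK102472 (ratio change to 15 min -0.23 to 0.25), AK058296 (ratio change to 24 h -0.091 to 0.39) and ACO1 (ratio change from 15 min -0.16 to 0.17, IR24 to 24 h -0.44 to 0.21, FR13A to 15 min -0.34 to 0.45). Over all probes the calls in the mean over the times fell from 4096 to 1039 with median centring, 2660 without constitutive replicate 1 and 2627 without 24 h replicate 2. Scan day as a block gave 340 against 1084 at 15 min, 956 against 1546 at 24 h, 47 and 30 against 396 and 301 for constitutive to 15 min (IR24 and FR13A) and 533 and 556 against 1684 and 1877 to 24 h. No normalisation between arrays gave 42 and 15, 818 and 819, and 7062 and 7223 from 15 min to 24 h, against 1879 and 2084. The ratio changes to 24 h (22 calls from constitutive, 17 from 15 min) fell to 0 and 0 with either block. In each comparison with calls, leaving out some 1 array also moved the count by over 1.5 times, down to 21 for FR13A constitutive to 15 min. Where no cause is given, it was not tested.

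The replicate number, which is also the dye orientation, did not pair samples in a uniform way. Deviations of same-numbered arrays correlated at 0.06 to 0.40 for ratios and at -0.51 to 0.24 for levels. The highest, 0.402, joined the ratios at 15 min and 24 h, where same-numbered arrays were also scanned together. Their residuals cannot be taken as independent, and what they share was not tested. Levels in constitutive and 15 min plants correlated at -0.455 in IR24 and -0.509 in FR13A. With the replicate block, the genes called numbered 3, 2, 2 and 3 between genotypes (mean, constitutive, 15 min, 24 h) and 3, 2, 2 and 3 for changes to 24 h (IR24 and FR13A from constitutive, then from 15 min), and no call among the 5 genes changed. With the 15 min numbers crossed, 0 of the 5 were called at 15 min, and 585 and 499 of all probes against 396 and 301. Median signal over background was 3.03 to 11.4 per channel, and 3 residual degrees of freedom limit the tests.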
